A study of Mus musculus with 4 samples.

Results

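The BCL2 family sets whether the outer mitochondrial membrane is opened during apoptosis, and 10 of its genes were followed in mouse blastocyst outgrowths that were wild-type or Tip110-/-. The members were taken by name: the pro-survival genes Bcl2, Bcl2l1, Bcl2l2 and Mcl1, the effectors Bax, Bak1 and Bok, and the BH3-only genes Bbc3, Pmaip1 and Bcl2l11. A gene was used where a row of the deposited table carried its symbol and no other, which held for 9 of the 10 members among 30142 genes in all. No row was named Bax in the annotation used, so Bax was not analysed here. Each of the 9 members had a single row, so no choice between rows was made.

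Pro-survival proteins of this family hold the effector proteins inactive. BH3-only proteins are made or released under stress, bind the pro-survival proteins and free the effectors, which then form pores that let cytochrome c reach the cytosol. There it joins Apaf1 and caspase-9 in the apoptosome, which starts the caspase cascade. In the early mouse embryo Mcl1 is needed around implantation and Bcl2l1 in later development. Much of the family's control is on the proteins, through binding, phosphorylation and turnover, which an RNA measurement does not see. Several members also have splice forms of opposite effect, such as the long and short forms of Bcl2l1 and Mcl1; each array row here gave a single value per gene, and the forms were not told apart.

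Outgrowths are blastocysts that have attached to the dish, with spread trophoblast around cells derived from the inner cell mass. Embryos came from crosses between Tip110+/- mice, were collected at 3.5 dpc and were grown singly for 4 to 6 days in KOSR-ESCM without further treatment. Both groups therefore share parents of the same genotype, the medium and the range of culture times, and differ by label in being wild-type or Tip110-/-; the days of culture of each outgrowth are not given. Of the 2 arrays in each group, replicate 1 came from 3 pooled outgrowths and replicate 2 from 1. Tip110 is the product of Sart3, a factor that helps to rebuild the U4/U6 particle in splicing. The labels do not describe the allele or the litters. The p-values rest on the spread between these 4 arrays only, and limma draws each gene's spread towards that of genes of like signal.

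Sart3 itself, the check of the labels, was at 4.94 and 5.98 in wild-type outgrowths against 4.28 and 4.54 in Tip110-/- outgrowths (deposited log2 signal, pool first and single second, as in all pairs of values that follow). It was lower in both Tip110-/- arrays, with a measured difference of -1.05 ± 0.39 (SE; limma adjusted p = 0.386), which was -0.53 without wild-type replicate 2 and -1.57 without wild-type replicate 1. Both Tip110-/- values were under the background percentile described below. With that percentile as the floor, the measured wild-type mean was at least 1.70-fold higher, a bound without allowance for the spread of replicates. The limma 95% interval of the difference was -2.06 to -0.04. Whether the probes of Sart3 lie in the deleted part is not known. The RNA collected per outgrowth was 249 and 178 pg for wild-type, against 55 and 144 pg for Tip110-/-, and the median over all genes was 4.21 and 4.22 against 4.45 and 4.32. The RNA put on each array was 144 pg by the sample labels, while the series' design text gives 100 pg per sample; either way it was the same for the 4 arrays. The RNA collected per outgrowth and this shift of the arrays cannot be told apart from genotype. Epiblast markers and dividing cell markers were lower in Tip110-/-. At an unadjusted limma p under 0.05, 8 of 10 and 7 of 7 were lower, against 3.67% of all genes. Log2 signals summed over the epiblast list were 94.3 and 96.7 against 69.9 and 56.9. For dividing cell markers the sums were 68.8 and 72.8 against 52.6 and 41.5. Among 12 trophoblast markers 3 were higher (8.99% of all genes) and 0 lower at that threshold, with sums of 126.8 and 119.4 against 136.4 and 145.2. With median centring Prl8a9 still passed (limma unadjusted p = 0.0021), while Plet1 (0.0657) and Cts7 (0.0594) did not. Cts7 was at 10.93 and 4.48 in wild-type. Both Tip110-/- arrays lay above both wild-type arrays for 6 of the 12, against 39.9% of all genes. None of 12 primitive endoderm markers passed in either direction (77.3 and 58.9 against 66.5 and 69.8). Epiblast and trophoblast markers were thus measured in these samples; Pou5f1 was at 10.04 and 10.06 against 7.75 and 5.52, Nanog at 13.56 and 15.19 against 10.10 and 4.15, and the endoderm factor Gata6 at 3.97 and 3.60 against 3.85 and 5.69, where only the single Tip110-/- outgrowth was clear of background. The 8 fibroblast markers lay between 3.03 and 4.38 on every array. Of 6 leukocyte markers Cd68 was high on every array (10.39 and 7.69 against 10.09 and 10.42). Csf1r (9.61 and 4.80 against 6.91 and 7.17) was near the background percentile of 4.63 in the single wild-type outgrowth and higher elsewhere. The defining marker Ptprc was at 3.50 to 3.70, and like the rest of the list it was under the background percentile on every array. In such bulk samples fewer cells of a type and less RNA per cell cannot be told apart, and the part of these marker changes in the values below was not tested.

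With all 4 arrays no member of the BCL2 family differed by 2-fold between the genotypes. The differences of the 9 members, Tip110-/- minus wild-type, ran from -0.88 for Bok to 0.62 for Bcl2l2 on the log2 scale, with a median of -0.06 against 0.15 over all genes. A difference of 1 or more, that is 2-fold, was reached by 10.1% of all genes in either direction, and by 21.0% of the 10241 genes whose mean signal lay within the range of the members' means. Bok reached it with median centring (-1.05) and with wild-type replicate 1 or Tip110-/- replicate 1 left out, and Bak1 without wild-type replicate 2. For 7 of the 9 the difference was smaller than the gap between replicates in at least 1 of the genotypes. The same share was not computed over all genes, so this count does not set the members apart. No member passed at a limma p adjusted by Benjamini-Hochberg over all genes (adjusted p from 0.385 to 0.961), and neither did any other gene (0 of 30142, 0%). At an unadjusted limma p under 0.05, 1 member was higher, Bcl2l2, where 8.99% of all genes were, and 0 were lower, where 3.67% were. With each array centred on its median, 911 genes were higher and 1825 lower in place of 2711 and 1106, and no member passed at the unadjusted threshold in either direction. Both Tip110-/- arrays lay above both wild-type arrays for Bcl2 and Bcl2l2, 2 of 9 members against 39.9% of all genes, and below them for Bok, 1 of 9 against 12.9%. Of the 10241 genes within the range of the members' means, 2376 lay above in this way and 2481 below. Counts of 2 and 1 among 9 genes are too small to set the members apart from either set of genes. The plot of signal by array shows the 9 members.

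**Figure D1:**
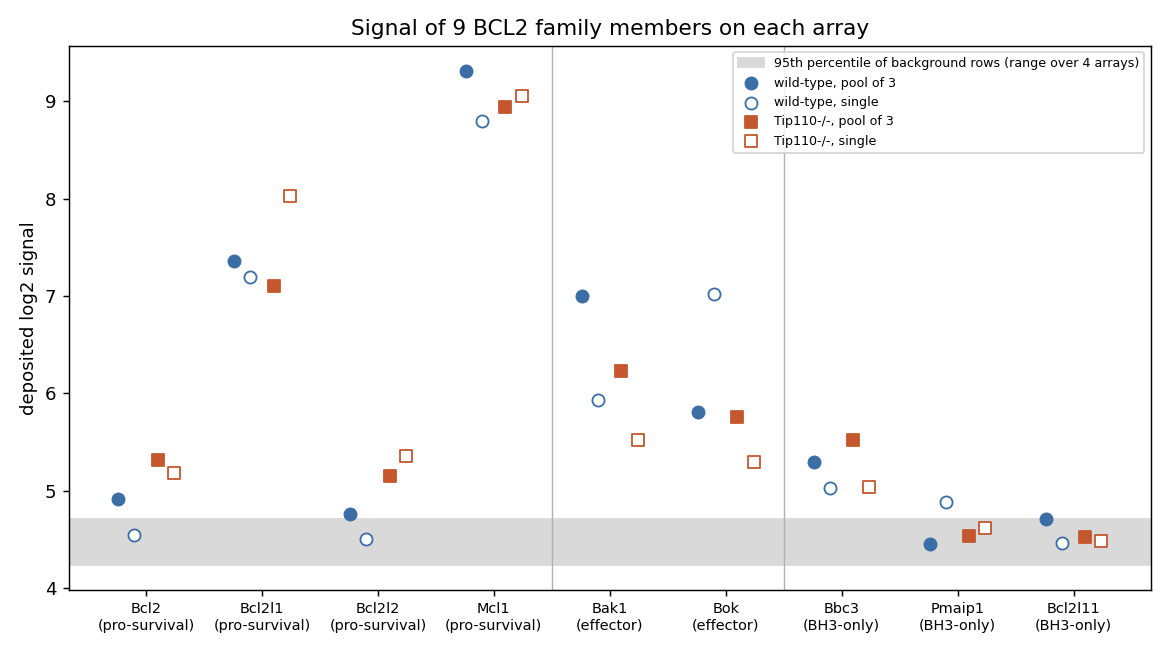
Deposited log2 signal (y axis) of each of 9 BCL2 family members (x axis) on the 4 arrays: circles are wild-type, squares Tip110-/-, filled symbols pools of 3 outgrowths and open symbols single outgrowths. The grey band is the range over arrays of the 95th percentile of the antigenomic background rows, 4.24 to 4.71; only Bcl2, Bcl2l2 and Bok have groups that do not overlap, and heights of different genes are not comparable because their probes differ.

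The antigenomic background rows, probes that match no mouse transcript, give a floor for each array. Their 95th percentile was 4.24 and 4.63 in wild-type outgrowths against 4.69 and 4.71 in Tip110-/- outgrowths. Bcl2l1, Mcl1, Bak1, Bok and Bbc3, 5 of 9 members, were above it on all 4 arrays. Bcl2 and Bcl2l2 were above it on 3 arrays and under it in the single wild-type outgrowth, Pmaip1 was above it on 2 arrays and Bcl2l11 on 1. For these last 4 genes a difference can understate a change in RNA, since signal near background is compressed.

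Among the pro-survival genes, Mcl1, whose short-lived protein restrains Bak1, was at 9.31 and 8.80 in wild-type outgrowths against 8.94 and 9.05 in Tip110-/- outgrowths, means of 9.06 ± 0.37 and 8.997 ± 0.077 (SD, n = 2 each). Both Tip110-/- values lie between the wild-type values. The difference was -0.06 ± 0.52 (SE; limma 95% interval -1.39 to 1.27, adjusted p = 0.961), an interval that leaves changes of more than 2-fold in both directions possible. Bcl2l1, which encodes BCL-XL, was at 7.36 and 7.20 in wild-type outgrowths against 7.10 and 8.03 in Tip110-/- outgrowths. The single Tip110-/- outgrowth was the highest of the 4 arrays and the Tip110-/- pool the lowest, so the groups overlap and the pools and single outgrowths differed in opposite directions, by -0.26 and 0.84. Its difference of 0.29 ± 0.50 (SE; limma adjusted p = 0.772) became -0.18 without Tip110-/- replicate 2.

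Bcl2 and Bcl2l2, both guardians of the outer membrane that bind BH3-only proteins, were the members higher in both Tip110-/- arrays. Bcl2 was at 4.91 and 4.54 in wild-type outgrowths against 5.32 and 5.19 in Tip110-/- outgrowths, a difference of 0.53 ± 0.24 (SE; limma 95% interval -0.09 to 1.14, unadjusted p = 0.079, adjusted p = 0.405). The groups do not overlap, and both Tip110-/- values are the higher. Bcl2l2, which encodes BCL-W, was at 4.76 and 4.50 in wild-type outgrowths against 5.15 and 5.36 in Tip110-/- outgrowths, a difference of 0.62 ± 0.23 or 1.54-fold (SE; limma 95% interval 1.03 to 2.30-fold, unadjusted p = 0.04, adjusted p = 0.385). It was higher in both Tip110-/- arrays, and replicates of a genotype were at most 0.26 apart. The unadjusted call ended with any of the 4 arrays left out (0.49 to 0.75, limma p from 0.0524 to 0.19). It also ended when arrays were centred on their medians (0.455), quantile normalized (0.58) or normalized by cyclic loess (0.55), with unadjusted limma p-values between 0.0532 and 0.109. With the replicate number as a block the difference stayed at 0.62 and did not pass (limma unadjusted p = 0.0777). Both genes sit near background, where genes in general were higher in Tip110-/-. Among the 2270 genes with a mean signal from 4.5 to 5.0, the median difference was 0.12, the 25th and 75th percentiles were -0.15 and 0.37 and the 95th was 0.885; 32.1% had both Tip110-/- arrays above both wild-type arrays.

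**Figure D2:**
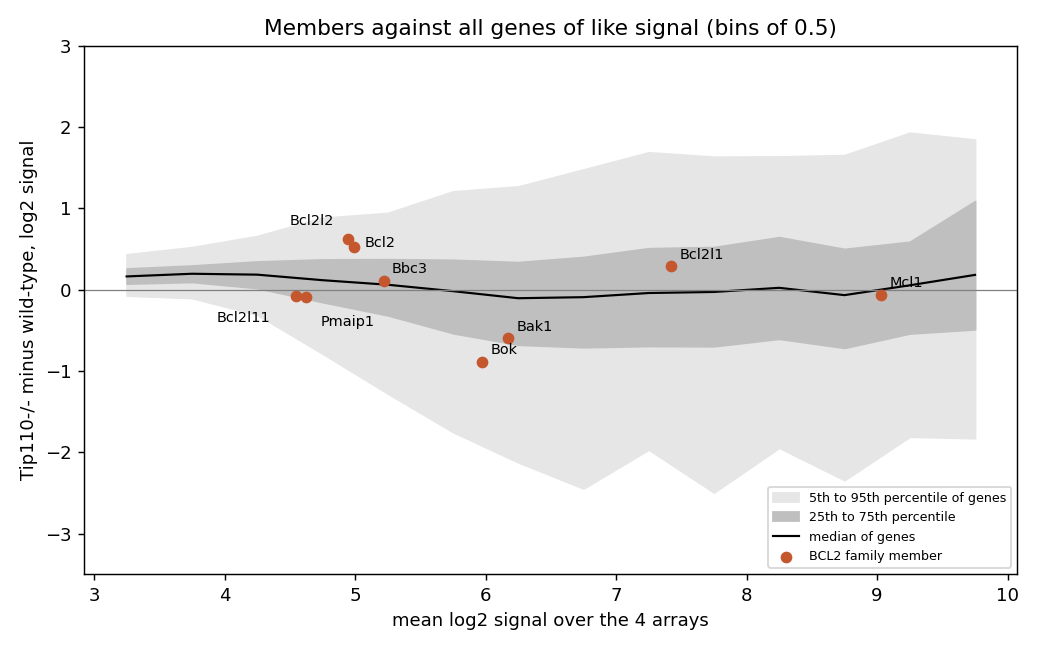
Difference between genotypes (y axis, log2, Tip110-/- minus wild-type) against the mean log2 signal over the 4 arrays (x axis) for the 9 members (points), with percentiles of all genes in bins of 0.5 (grey bands) and their median (line). Bcl2 and Bcl2l2 lie above the 75th percentile and Bok below the 25th percentile of genes of like signal, and every member lies between the 5th and 95th percentiles.

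The effectors were the members with the lowest differences. Bok, a BAX-like protein that can act without the other effectors, was at 5.81 and 7.02 in wild-type outgrowths against 5.76 and 5.30 in Tip110-/- outgrowths, means of 6.41 ± 0.86 and 5.53 ± 0.33 (SD, n = 2 each). Both Tip110-/- values are the lower, but the pools differ by only -0.045, and the difference rests on the single wild-type outgrowth, which stands 1.21 above the wild-type pool. The difference was -0.88 ± 0.50 (SE; limma 95% interval -2.17 to 0.40, adjusted p = 0.446); it was -0.28 without wild-type replicate 2 and -1.49 without wild-type replicate 1, where the unadjusted limma p was 0.0293. Bak1, which resides in the outer mitochondrial membrane, was at 7.002 and 5.932 in wild-type outgrowths against 6.23 and 5.52 in Tip110-/- outgrowths, a difference of -0.59 ± 0.51 (SE; limma adjusted p = 0.558). The groups overlap, since the Tip110-/- pool is above the single wild-type outgrowth. Within each kind of sample Bak1 was lower in Tip110-/-, with differences of -0.78 between pools and -0.41 between single outgrowths, and within each genotype it was higher in the pool, by 1.07 and 0.71. Its difference was -0.06 without wild-type replicate 1, -1.13 without wild-type replicate 2, -0.95 without Tip110-/- replicate 1 and -0.24 without Tip110-/- replicate 2.

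The 3 BH3-only genes differed by 0.11 or less in size. Bbc3, which encodes PUMA, a p53 target that binds all pro-survival members, was at 5.30 and 5.03 in wild-type outgrowths against 5.52 and 5.04 in Tip110-/- outgrowths. The groups overlap, the pool is the higher array in each genotype, and the difference was 0.11 ± 0.28 (SE; limma 95% interval -0.61 to 0.84, adjusted p = 0.846); it was -0.05 with arrays centred on their medians. Pmaip1, which encodes NOXA, a partner of MCL1, was at 4.45 and 4.89 in wild-type outgrowths against 4.54 and 4.62 in Tip110-/- outgrowths, a difference of -0.09 ± 0.22 (SE; limma 95% interval -0.66 to 0.48, adjusted p = 0.845). Bcl2l11, which encodes BIM, an activator of effectors, was at 4.71 and 4.46 in wild-type outgrowths against 4.53 and 4.49 in Tip110-/- outgrowths, a difference of -0.08 ± 0.19 (SE; limma 95% interval -0.56 to 0.40, adjusted p = 0.833). For Pmaip1 and Bcl2l11 both Tip110-/- values lie between the wild-type values and under the background percentile. These 3 were the members whose 95% interval stayed within 2-fold in both directions. For Pmaip1 and Bcl2l11 that interval does not bound a change in RNA, since signal near background is compressed. For the other 6 members the interval reached past 2-fold, so these arrays allow a change of that size.

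**Figure D3:**
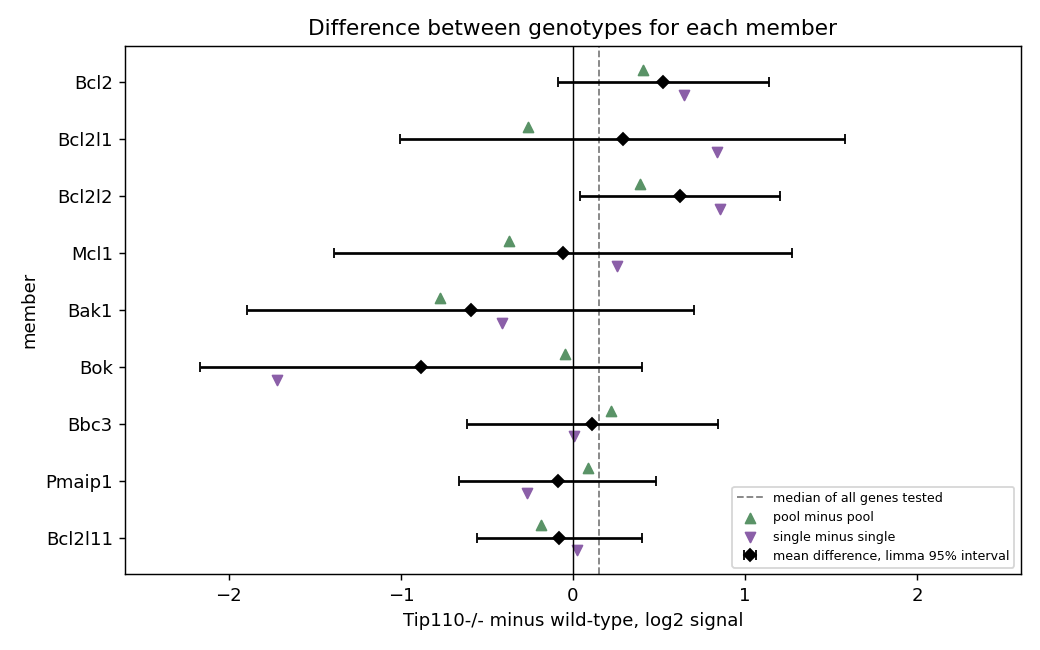
Difference in log2 signal, Tip110-/- minus wild-type (x axis), of each member (y axis): diamonds with bars are the limma estimate and its 95% interval from 2 arrays per genotype, triangles the pools and inverted triangles the single outgrowths. The dashed line is the median of all genes, 0.15; only the interval of Bcl2l2 does not include 0, and Bcl2l1, Mcl1, Pmaip1 and Bcl2l11 have pools and single outgrowths on opposite sides of 0.

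Pools and single outgrowths were also compared within genotype. No member passed (0 of 9 at an unadjusted limma p under 0.05, against 3.28% of all genes), and Bak1 had the largest difference, 0.89 ± 0.40 higher in pools (SE; limma unadjusted p = 0.076). The sign of the genotype difference was the same in pools and in single outgrowths for 5 of 9 members. The share of all genes with the same sign was not computed. Signals were higher in both for Bcl2, Bcl2l2 and Bbc3, and lower in both for Bak1 and Bok. Bbc3 differed by only 0.004 between single outgrowths and Bok by only -0.045 between pools, so these 2 signs carry little. By role, the median difference was 0.41 over the 4 pro-survival genes, -0.74 over the 2 effectors and -0.08 over the 3 BH3-only genes. These are medians over few genes with no test, and the effector value lacks Bax.

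Promoter sequence is shown for the members whose groups did not overlap, Bcl2, Bcl2l2 and Bok, as the stretch upstream of the outermost RefSeq start of each gene (RefSeq, GRCm38.p6, read 5′ to 3′ on the gene's strand). Bcl2 is shown from chr1:106714291-106714540 on the minus strand, Bcl2l2 from chr14:54883175-54883365 on the plus strand and Bok from chr1:93685325-93685574 on the plus strand. Capitals mark the GC box GGGCGG on either strand, a motif bound by Sp1-type factors.
Bcl2: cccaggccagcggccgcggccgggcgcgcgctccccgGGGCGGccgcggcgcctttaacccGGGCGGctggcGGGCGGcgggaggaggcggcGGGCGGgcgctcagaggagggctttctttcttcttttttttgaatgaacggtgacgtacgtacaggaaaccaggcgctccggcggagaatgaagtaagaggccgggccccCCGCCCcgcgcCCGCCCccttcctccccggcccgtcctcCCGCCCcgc
Bcl2l2: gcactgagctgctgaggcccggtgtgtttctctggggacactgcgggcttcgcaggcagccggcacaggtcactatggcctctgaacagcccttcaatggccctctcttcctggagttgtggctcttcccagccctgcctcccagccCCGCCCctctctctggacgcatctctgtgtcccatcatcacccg
Bok: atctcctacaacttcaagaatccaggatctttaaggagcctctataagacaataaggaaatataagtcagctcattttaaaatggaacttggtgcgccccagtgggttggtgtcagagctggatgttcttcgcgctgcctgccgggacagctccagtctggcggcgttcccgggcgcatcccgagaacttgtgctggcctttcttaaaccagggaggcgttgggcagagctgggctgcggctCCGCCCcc
The Bcl2 stretch holds 7 GC boxes and is 74.8% G or C, against 1 GC box and 63.9% for Bcl2l2 and 1 and 55.2% for Bok. The stretches of Bcl2 and Bok are 250 bases long and that of Bcl2l2 is 191, so the counts come from unequal lengths. Whether these counts go with the differences in signal was not tested. Windows from 250 bases before to 50 after a start were searched for 9 of the 10 members, with Bax and without Pmaip1, giving 14 windows because some genes have several starts, whose windows can overlap. GGGCGG on either strand was in 10 of 14 windows and in 35.7% of all 32851 promoter windows. The E-box CACGTG, which MYC and MAX bind, was in the windows of 2 genes, Bax and Bbc3 (7.15% of all windows); the p53 half-site consensus was in that of Bax alone (8.36%); TATAAA was in none of the 14 (13.6%). Both strands were searched, repeats of a motif were counted where they overlapped, and overlap between different motifs was allowed. A match describes these letters only.

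Genes around the family were taken from lists by role. Of 17 other BCL2 family genes measured out of 19 listed, 1 was higher at an unadjusted limma p under 0.05 (8.99% of all genes). At that threshold 0 were lower (3.67% of all genes) and 16 did not pass, with a median difference of 0.10. Bcl2l12, a BCL2-like protein linked to p53, was at 4.35 and 4.15 against 4.92 and 4.70, higher by 0.56 ± 0.19 (SE, limma adjusted p = 0.372). Its signal was above the background percentile on 2 arrays only, the pools. Without passing, the BCL2 homolog of oocytes Bcl2l10 differed by 0.54 with all 4 arrays under the background percentile, the BH3-only gene Bik by 0.52 with 1 array above it, and Bid, the link from death receptors to mitochondria, by -0.31. Differences in this list reached no further than -0.86 and 0.56. None of these 17 genes differed by 2-fold or more. The unadjusted call of Bcl2l12 ended with median centring, cyclic loess or the replicate block, and without either wild-type array or Tip110-/- replicate 1 (0.39 to 0.66, limma p from 0.0521 to 0.162).

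Genes of the steps after the membrane were mostly within 2-fold. Among 7 measured genes of cytochrome c, the apoptosome and caspases, 1 was lower (3.67% of all genes) and 1 higher (8.99%). The list median was 0.31. Cyct, the testis form of cytochrome c, was at 9.14 and 9.30 in wild-type outgrowths against 3.92 and 3.82 in Tip110-/- outgrowths. Both Tip110-/- arrays were under the background percentile. With that percentile as the floor, the measured wild-type mean was at least 22.9-fold higher, without allowance for spread (limma adjusted p = 0.154). Cyct was the 1 gene of the 7 past 2-fold. Cycs, the somatic form, was at 15.54 and 15.13 against 15.25 and 14.90, a difference of -0.26 with overlapping groups, and both measured caspase genes overlapped too, with differences of 0.395 and 0.31. Dffb, the nuclease that cuts DNA between nucleosomes, was at 4.01 and 4.36 against 5.02 and 5.13, a measured difference of 0.89 ± 0.21 (SE; limma adjusted p = 0.334). Both wild-type values were under the background percentile, so the measured Tip110-/- mean was at least 1.56-fold higher. That bound makes no allowance for spread, and the limma 95% interval was 1.28 to 2.70-fold. Dffa, the inhibitor of this nuclease, differed by -0.42 and Apaf1 by 0.34 without passing. The unadjusted call of Dffb ended without wild-type replicate 1 (0.72, limma unadjusted p = 0.0587).

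Among 11 genes of the inhibitors of apoptosis and the mitochondrial proteins that oppose them, the median difference was -0.12. Of these, 3 were lower (3.67% of all genes) and 0 higher (8.99%). Endog, a mitochondrial nuclease, was at 7.58 and 7.52 against 5.26 and 5.44, a difference of -2.20 ± 0.33 (SE; limma adjusted p = 0.290). Birc5, survivin, which also serves the mitotic spindle, was at 6.43 and 6.58 against 5.43 and 4.60, a difference of -1.49 ± 0.38 (SE; limma adjusted p = 0.339). The dividing cell markers moved with it, with a list median of -3.99; their part in it was not tested. Htra2, a mitochondrial protease that releases caspases from inhibition, was at 7.79 and 7.27 against 5.95 and 6.63, a difference of -1.24 ± 0.46 (SE; limma adjusted p = 0.385), and Birc7 differed by 0.30 at a level under background. The unadjusted call of Birc5 ended without Tip110-/- replicate 2 (-1.07, limma unadjusted p = 0.0501). That of Htra2 ended with quantile normalization, with the replicate block and without either wild-type array or Tip110-/- replicate 1 (-1.50 to -0.90, limma p from 0.0515 to 0.177).

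Genes of mitochondrial channels and of fission and fusion gave 2 lower (3.67% of all genes) and 1 higher (8.99%) of 13, with a median of -0.36. Oma1, the protease that cuts OPA1 under stress, was at 6.54 and 6.57 against 4.81 and 4.26, a difference of -2.02 ± 0.31 (SE; limma adjusted p = 0.287). Slc25a5, an ADP/ATP carrier of the inner membrane, was at 16.76 and 16.61 against 15.76 and 15.33, a difference of -1.14 ± 0.24. Mfn2, a mitofusin, was at 5.86 and 6.42 against 7.15 and 8.26, higher by 1.57 ± 0.54. Vdac1, a channel of the outer membrane, differed by -0.98 without passing. The unadjusted call of Mfn2 ended with median centring and without either wild-type array or Tip110-/- replicate 2 (1.01 to 1.85, limma p from 0.0574 to 0.147). A difference of 2-fold or more was measured for 4 of these 13 genes, 3 of the 11 above and 0 of the 9 members, beside 10.1% of all genes and 17.3% of genes above the median row; the lists were not tested against each other.

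The 24 measured regulators of the family, out of 26 listed, included transcription factors and some genes of MCL1 or BIM turnover. Of these, 1 was higher (8.99% of all genes), 0 were lower (3.67%) and 23 did not pass, with a median of -0.17. Myc, a growth-promoting factor that also primes cells for apoptosis, was at 11.15 and 10.95 against 12.52 and 13.82, higher by 2.12 ± 0.60 (SE; limma adjusted p = 0.343). The chaperone partner Bag6 differed by -1.21, E2f1 by -0.77 and Bag3, a partner of BCL2, by 0.71, all without passing. The unadjusted call of Myc ended without wild-type replicate 2 or Tip110-/- replicate 2 (2.02 and 1.47, limma p of 0.0575 and 0.0782). Trp53 had no named row and was not analysed here. Huwe1, a ligase of MCL1, had only a row with several symbols and was not analysed either.

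**Figure D4:**
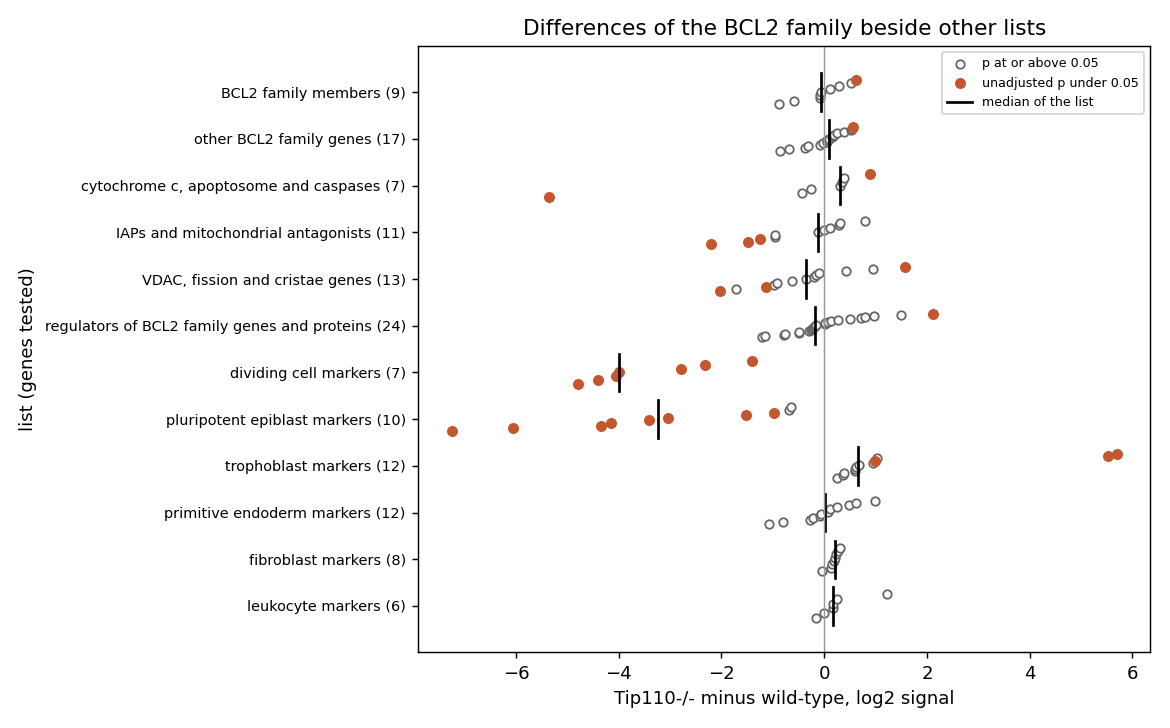
Difference in log2 signal, Tip110-/- minus wild-type (x axis), of every tested gene (points) in 12 lists (y axis, with the number of genes); filled points have an unadjusted limma p under 0.05 and vertical bars are list medians. The 9 BCL2 family members lie between -0.88 and 0.62, while dividing cell and epiblast markers have medians of -3.99 and -3.23.

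The genes whose pattern over the 4 arrays was most like that of a member were found among 19045 other protein coding genes, by the root mean square distance of values centred on each gene's mean. For Bok, the lowest difference, they were Cwf19l2 (distance 0.023 on the log2 scale), Ptk7 (0.033) and Gm3072 (0.042). For Bcl2l2, the highest, they were Olfr1155 (0.020), Olfr770 (0.029) and Zranb2 (0.036). Ptk7 is a receptor of planar cell polarity, Zranb2 an RNA-binding protein and the Olfr genes encode odorant receptors; Olfr1155 was at 4.16 and 3.85 against 4.54 and 4.72. With 4 arrays many genes share any such pattern, and the likeness is a description.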

How the data were processed

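RNA of 4 samples, 2 wild-type and 2 Tip110-/-, was measured on Affymetrix whole-transcript arrays. The deposited values are log2 signals, 1 per row and array, made by the authors with Affymetrix Expression Console and Transcriptome Analysis Console, per the submitters' processing notes; the log base was inferred from their range, and for the normalization, tool versions and genome build the entry is: not given in the sources used here. Of 65956 transcript cluster rows, 30604 carried 1 gene symbol, 2146 several and 33206 none in the platform annotation; symbols were updated by Entrez ID through RefSeq (GRCm38.p6) for 22815 rows. Rows with 1 symbol were kept, the row of highest mean for genes with several, leaving 30142 genes, without a filter on level.

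Each gene was fitted with limma 3.58.1 (R 4.3.3; lmFit, eBayes with trend) on genotype, two-sided, with Benjamini-Hochberg adjustment over all genes and a threshold of 0.05; the script was tested on simulated data. The number of arrays, 2 per group, limits the precision. The members and lists were chosen with earlier results of these data known, so no list was tested. Genes named were all members, the 4 of smallest p in each list around the family, Sart3, Pou5f1, Nanog and Gata6. The 3 nearest in pattern to the members of lowest and highest difference were also named. Prl3d1 and Trp53 had no named row. Of marker lists the rule also took the 4 of smallest p, but counts and sums are given instead. The exceptions are Prl8a9, Plet1 and Cts7, the trophoblast markers that passed. Cd68, Csf1r and Ptprc were named after their values were seen. Alternatives were quantile, median and cyclic loess scaling, a filter at the median row, no trend, a replicate block, the mean of a gene's rows, the maximum in place of the 95th percentile of 23 background rows, and each array left out. Plots used matplotlib 3.10.9.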

Additional observations from a re-analysis of the deposited data

How the results depend on the processing

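No gene passed the adjusted threshold under any setting run, members included. The count of genes higher at an unadjusted p under 0.05, 2711, was 1262 with quantile normalization, 911 with median centring, 1173 with cyclic loess, 957 with rows above the median row only, 1659 without the intensity trend, and 1166 to 4660 with an array left out (4660 without Tip110-/- replicate 2). The count lower, 1106, was 1825 with median centring. The member higher at that threshold, Bcl2l2, was lost with quantile normalization, median centring, cyclic loess and the replicate block (0 members each) and with any array left out (0 to 0), while 0 to 1 members were lower with an array left out (Bok, without wild-type replicate 1). The count of pathway genes higher, 4, was 2 with median centring and 1 to 5 with an array left out (2 without wild-type replicate 1, 1 without wild-type replicate 2). The median member difference, -0.06, was -0.225 with median centring and ran from -0.11 to 0.20 with an array left out (0.20 without wild-type replicate 1). With the maximum of the background rows 3 members, not 5, were above it on all arrays.

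Single members changed sign as follows. Mcl1 was at 0.0021 with cyclic loess and from -0.32 to 0.20 with an array left out, and Bbc3 at -0.053 with median centring and from -0.13 to 0.36. Bcl2l1 ran from -0.18 to 0.75, Pmaip1 from -0.31 to 0.13 and Bcl2l11 from -0.204 to 0.045 with an array left out. The cause was not tested. Bcl2, Bcl2l2, Bak1 and Bok kept their sign under all settings run. Equal replicate numbers did not deviate together (correlation across genes of -0.09), and the labels tie the numbers to pools and single outgrowths but to no shared litter, batch or day; with the replicate block 2225 genes were higher and 1111 lower. With 1 array left in a group its spread is assumed to be that of the other group. With 2 arrays per group, the 95% intervals of 6 of 9 members reached past 2-fold.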

Other observations

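In some genes around the family 1 array stood well above the other 3; in Mdm2 and Mfn1 the genotypes also did not overlap. These genes were picked after their values were seen and are given as values only. The single wild-type outgrowth, in which Bok was highest, also had the highest signal of Usp9x, a deubiquitinase of MCL1, at 12.82 against 9.96 in the wild-type pool and 10.39 and 10.08 in Tip110-/-, of the mitofusin Mfn1, at 9.66 against 7.15, 7.02 and 6.36, and of the inhibitor of apoptosis Birc2, at 5.86 against 4.22, 4.24 and 3.93.

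The single Tip110-/- outgrowth, in which Bcl2l1 was highest, also had the highest signal of Mdm2, the p53 ligase, at 11.59 against 9.55 in the Tip110-/- pool and 8.89 and 9.26 in wild-type. The stress factors Ddit3 and Atf4 were highest there as well, Ddit3 at 11.32 against 8.52, 8.97 and 8.92, and Atf4 at 11.88 against 9.84, 10.42 and 9.71. Bbc3, Pmaip1 and Bcl2l11 were not highest on that array. None of these genes passed at an unadjusted limma p under 0.05 for genotype.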
